A study of Mus musculus with 29 samples.

Results

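The 8 genes described here encode the subunits of condensin in the mouse ovary, 8 of the 51912 gene IDs in the count table. They were listed by name and matched by symbol, and all 8 were found. Ncapg, Ncaph and Ncapd2 belong to condensin I, Ncapg2, Ncaph2 and Ncapd3 to condensin II, and Smc2 and Smc4 to both complexes. The set was picked because Ncapg was higher in ovaries without Cdkn1b at 2 ages, embryonic day 18.5 (E18.5) and postnatal day 8 (PND8). The genotype differences of all 8 genes at those ages are therefore given as descriptions without p-values. Counts of subunits that passed a test at those ages also only describe the set. No p-value is given for Ncapg anywhere. The study measured RNA in whole ovaries of 2 genotypes at 4 ages, E13.5, E18.5, PND8 and 12 weeks (12wk), to learn how control of the cell cycle bears on ovarian development. Wild-type ovaries carried Cdkn1b +/+, and null ovaries carried Cdkn1b -/-, a homozygous loss of the gene for p27Kip1, which inhibits cyclin-dependent kinases. Wild type had 4 samples per age, null ovaries had 4 at E18.5 and 3 at the other ages, and the total was 29. Papain was used to dissociate all ovaries before RNA extraction. The labels name no treatment, no strain, no Cre driver and no sorting of cells, and they do not say whether the samples were single animals, pools or littermates, so p-values measure only the spread between these samples.

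Condensin is a ring of the SMC family (structural maintenance of chromosomes) that folds chromatin into loops and compacts chromosomes for cell division. Smc2 and Smc4 form the ATP-driven core, a kleisin subunit (Ncaph or Ncaph2) closes the ring, and a pair of HEAT-repeat subunits (Ncapd2 and Ncapg, or Ncapd3 and Ncapg2) binds to the kleisin. Condensin II is nuclear throughout the cell cycle and starts compaction in prophase, while condensin I reaches the chromosomes after the nuclear envelope breaks down. In the ovary condensin serves the mitoses of germ cell and pregranulosa precursors, the meiotic divisions of oocytes, and the proliferation of granulosa cells in growing follicles. p27Kip1 holds cells in G1 by inhibiting cyclin-dependent kinases.

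Total counts ran from 14.1 to 24.9 M in the 15 embryonic libraries and from 24.1 to 48.2 M in the 14 postnatal libraries. A floor of 3 counts corresponded to 0.0622 to 0.213 CPM, counts scaled to the library total, a limit that covers counting error only, and the lowest count of any subunit was 462, for Ncapg2 in wild-type E18.5 replicate 2. Low counts thus limited none of the 8 genes, and all 8 passed the filter on low counts in each comparison. In order of age, Cdkn1b averaged 22.8, 103, 148.5 and 183.3 CPM in wild type and 4.49, 12.7, 71.7 and 51.2 CPM in null ovaries, with separate ranges throughout. In wild-type E13.5 replicate 3, 18.97% of the counts were haemoglobin, and the summed germ cell markers of null E13.5 replicate 3 were 877.7 CPM against 309.4 and 604.8 CPM in the other 2 null libraries. Fixed markers of germ cells and of the granulosa lineage summed to at least 29.2 and 158.2 CPM in every library. At 12wk the mean germ cell sum was mostly Kit (36.3 CPM in wild type and 87.2 CPM in null), with Ddx4 at 0.51 and 0.27 CPM. Of 7 germ cell genes tested between the genotypes at 12wk, 1 had a log2 fold change above 0 (median -2.28), and 0 passed. In whole ovaries a lower share of dividing cells and less condensin RNA per cell cannot be told apart.

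On the GRCm38 mouse genome (GENCODE M21 annotation), the condensin I genes lie at chromosome 5, 45669919 to 45700546, plus strand (Ncapg), chromosome 2, 127103809 to 127133954, minus strand (Ncaph), and chromosome 6, 125168007 to 125191701, minus strand (Ncapd2). The condensin II genes lie at chromosome 12, 116405402 to 116463731 (Ncapg2), chromosome 15, 89355719 to 89372826 (Ncaph2), and chromosome 9, 27030175 to 27095315 (Ncapd3), all on the plus strand. Smc2 (chromosome 4, 52439243 to 52488260) and Smc4 (chromosome 3, 69004738 to 69034623) are on the plus strand too. RefSeq promoters of 300 bases, 250 before and 50 after a start site, were found for 7 of the 8 genes and not for Smc4. They were searched on both strands for 3 elements of cell cycle promoters: the cell cycle genes homology region TTTGAA, bound by the MuvB core of the DREAM complex, the CCAAT box, bound by NF-Y, and the E2F-type words TTTCCCGC, TTTCGCGC, TTTGCCGC and TTTGGCGC. A plain E2F search left off the leading T of these strict words, so each strict match also holds a plain one. Of 32851 mouse promoters of this length, 17.9% held TTTGAA, 37.4% held CCAAT, 9.57% held a plain E2F word and 2.26% a strict one.

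Stretches before the annotated gene start are shown for 4 subunits, 3 with TTTGAA and CCAAT and 1 with none of the words, in lower case with TTTGAA and CCAAT (or their reverse complements) in capitals. They are read 5′ to 3′ on the strand of the gene, from GRCm38.p6: Ncapg chr5:45669745-45669918 (plus), Ncapd2 chr6:125191702-125191766 (minus), Smc2 chr4:52439041-52439220 (plus) and Ncaph2 chr15:89355539-89355718 (plus).
Ncapg: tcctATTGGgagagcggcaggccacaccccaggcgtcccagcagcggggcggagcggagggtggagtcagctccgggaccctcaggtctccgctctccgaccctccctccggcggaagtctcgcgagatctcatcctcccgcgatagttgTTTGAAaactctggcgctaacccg
Ncapd2: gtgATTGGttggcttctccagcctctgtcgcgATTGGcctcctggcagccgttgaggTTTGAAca
Smc2: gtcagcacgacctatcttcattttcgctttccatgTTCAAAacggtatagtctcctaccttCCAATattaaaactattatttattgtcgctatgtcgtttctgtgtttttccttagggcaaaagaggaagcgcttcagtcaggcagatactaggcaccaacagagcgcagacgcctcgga
Ncaph2: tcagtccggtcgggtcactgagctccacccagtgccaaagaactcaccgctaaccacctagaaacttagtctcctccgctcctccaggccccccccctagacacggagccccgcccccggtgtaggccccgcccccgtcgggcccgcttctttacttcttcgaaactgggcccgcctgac
In Ncapg the TTTGAA began 30 bases and the CCAAT match 176 bases before the RefSeq start, and in Ncapd2 the TTTGAA began 123 bases before it. Over the whole 300 bases, strict E2F words were found in Ncapg, Ncapd2 and Ncapg2, the last of which also held TTTGAA 18 bases before its start. Ncaph and the main promoter of Ncapd3 held a plain E2F word alone, and Ncaph2 held none of the words searched. A further RefSeq promoter of Ncapd3 held TTTGAA alone, as its reverse complement, 249 bases before its start. For 5 of the 8 promoters of these genes, the first 25 bases after the RefSeq start occurred in a GENCODE transcript. These are matches of letters in 1 window, not binding sites.

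The subunits were not equally abundant. Per kilobase of the principal transcript, wild-type E13.5 ovaries held 54.1 CPM of Ncaph2, 34.3 of Smc4, 33.7 of Ncaph, 29.8 of Smc2, 29.2 of Ncapd2, 17.6 of Ncapg, 13.1 of Ncapg2 and 11.2 of Ncapd3. The kleisins and the SMC core thus stood above the G subunits and Ncapd3. By PND8 the order in wild type had changed at the top and the bottom, with Ncapd2 at 61.6 CPM per kilobase above Ncaph2 at 55.0, and Ncapg at 10.7 next to Ncapd3 at 11.1.

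Across the 8 groups, the mean CPM of Ncapd2 spanned the widest range, 6.95-fold between null PND8 (332.3 ± 36.4 CPM, SD, n = 3) and wild-type E18.5 (47.8 ± 11.2 CPM, n = 4). The other 7 genes spanned 1.62-fold (Ncaph2) to 3.43-fold (Ncapg). Ncapg was highest at E13.5, at 65.2 ± 6.14 CPM in wild type (n = 4) and 68.8 ± 5.63 CPM in null ovaries (n = 3), which overlapped. Next in its order came null PND8 (54.2 CPM) and null E18.5 (53.0 CPM), which overlapped each other, then wild-type PND8 (39.5 CPM) and wild-type E18.5 (35.2 CPM), which also overlapped, and last both 12wk groups (24.3 CPM in null and 20.0 CPM in wild type, overlapping). Null E18.5 reached into the E13.5 range with 1 library (65.0 CPM in replicate 3), and the 12wk groups lay below every other library. The lowest group was wild-type E18.5 for Ncapd2, Ncapg2, Ncaph2 and Ncapd3, and wild-type 12wk for Ncapg, Ncaph, Smc2 and Smc4.

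**Figure D1:**
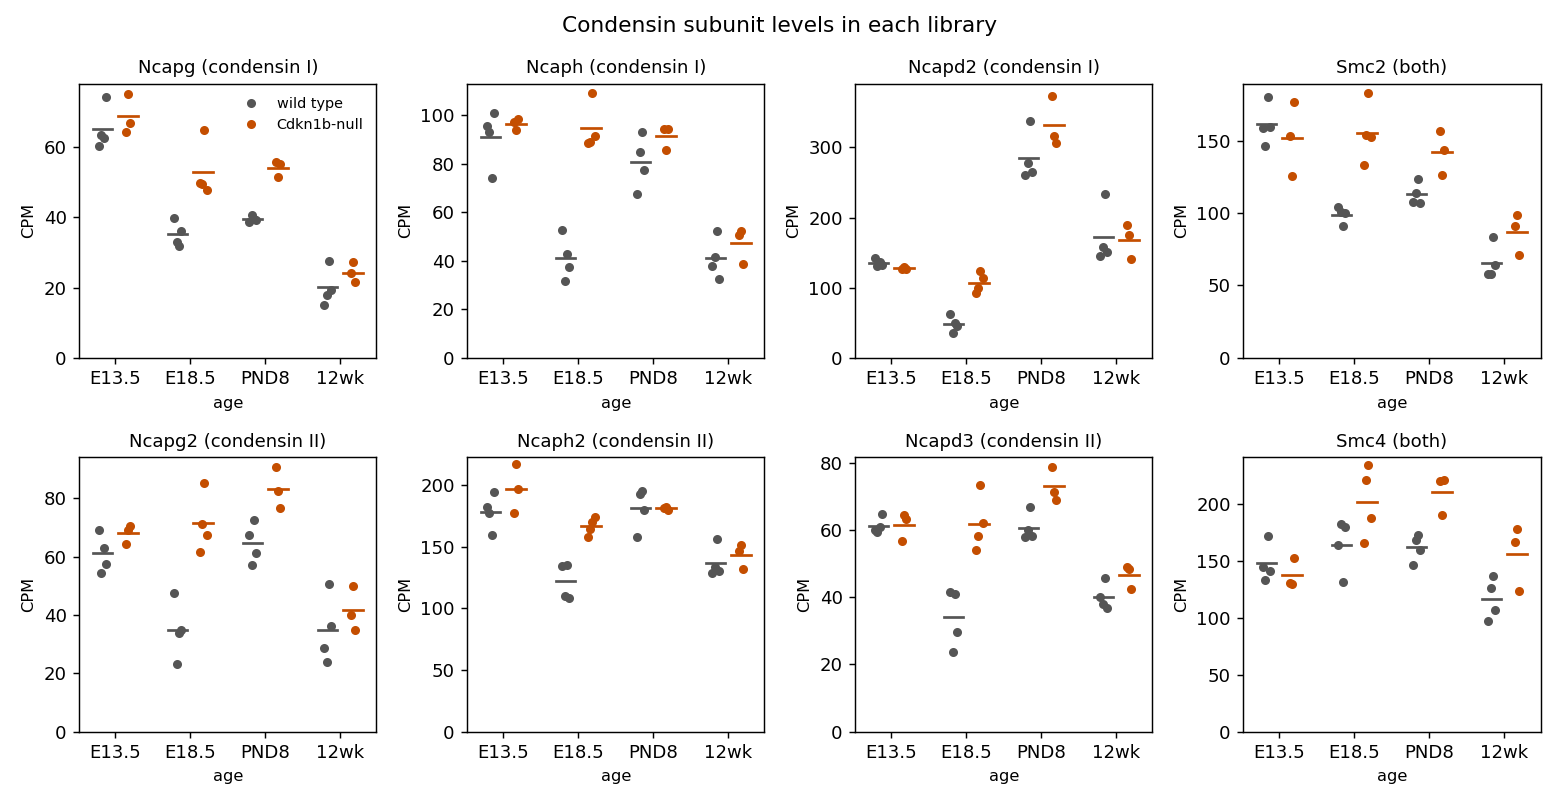
Level of each condensin subunit in each library (CPM, linear axis from 0), by age, with wild type in grey and Cdkn1b-null in orange; points are libraries and bars are group means. Ncapd2 rose highest at PND8 (284.9 CPM in wild type, 332.3 CPM in null), while Ncapg was highest at E13.5 and lowest at 12wk.

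At E18.5 the condensin I subunits were higher in null ovaries. Ncapg, a HEAT-repeat subunit, measured 39.8, 32.9, 31.9 and 36.1 CPM in the wild-type libraries and 49.8, 49.4, 65.0 and 47.8 CPM in the null libraries. Ncaph, the kleisin of condensin I, measured 52.7, 31.7, 42.6 and 37.6 CPM in wild type and 88.7, 89.0, 109.1 and 91.6 CPM in null ovaries. Ncapd2, the other HEAT-repeat subunit, measured 62.0, 34.8, 49.2 and 45.3 CPM against 92.5, 98.9, 123.5 and 114.3 CPM. No null library of these 3 genes reached down to a wild-type library. The fitted log2 fold changes were 0.56 (SE 0.13) for Ncapg, 1.17 (SE 0.15) for Ncaph and 1.14 (SE 0.16) for Ncapd2, or 1.48-, 2.25- and 2.20-fold.

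The condensin II subunits ran the same way at E18.5. Ncapg2, its G subunit, measured 47.5, 23.1, 33.8 and 34.9 CPM in wild type and 61.7, 71.4, 85.4 and 67.6 CPM in null ovaries, a log2 fold change of 1.01 (SE 0.19). Ncapd3, its D subunit, ran from 23.8 to 41.6 CPM in wild type and from 54.1 to 73.3 CPM in null ovaries, with a log2 fold change of 0.84 (SE 0.17). Ncaph2, its kleisin, ran from 108.6 to 134.8 CPM against 158.1 to 174.2 CPM, with the smallest difference of the 3 (log2 fold change 0.42, SE 0.10). The groups of all 3 were separate.

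Of the shared core, Smc4 had the smallest difference of the 8 subunits and Smc2 a larger one. Smc2 measured 104.4, 100.7, 90.7 and 99.9 CPM in wild type and 132.8, 153.5, 183.0 and 152.6 CPM in null ovaries, which did not overlap (log2 fold change 0.62, SE 0.11). Smc4, its partner ATPase, measured 163.9, 182.8, 131.4 and 179.9 CPM in wild type and 165.9, 221.1, 234.5 and 188.0 CPM in null ovaries. The 2 groups of Smc4 overlapped (log2 fold change 0.27, SE 0.14).

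Of the 7 subunits other than Ncapg, 6 passed the threshold as higher at E18.5 (all but Smc4), beside 3.32% of the 16322 genes tested. The same 6 had groups that did not overlap, beside 10.2% of genes. Since the set was chosen on this contrast, these counts describe it and support nothing. Null replicate 3 was the highest of its group for 7 of the 8 subunits, and without it 3 of the 7 passed the threshold, each still higher. With it left out the log2 fold changes of Ncapg2 and Ncapd3 were 0.92 and 0.75. Over the 8 fits that each left out 1 library, Ncaph2 missed the threshold in 6 (log2 fold change 0.37 to 0.47), Ncapd3 in 3 (0.71 to 0.94) and Ncapg2 in 1.

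Marker sums of several cell types overlapped between the genotypes at this age: 503.7 to 1164 CPM in wild type and 403.9 to 787.1 CPM in null for 10 germ cell genes (1 of them at 0 in both), 495.3 to 656 against 591 to 828.8 CPM for 8 granulosa genes, and 1103 to 2488 against 1137 to 1746 CPM for 5 stroma and theca genes. Fitted values of 2 lists leaned lower in null ovaries. Of 8 germ cell genes tested, 1 had a log2 fold change above 0 (median -0.60), as had 1 of the 5 stroma genes (median -0.52). The median was -0.11 for the granulosa genes (3 of 7 tested above 0) and -0.04 over all genes. Some single markers passed. Inha, the alpha subunit of inhibin, was the 1 granulosa gene called higher (100.4 and 225.9 CPM), and Nr2f2 and Tcf21 were the 2 stroma genes called lower (128 and 91.3 CPM, and 38.9 and 23.1 CPM), beside 1.67% of all genes that were lower. The sum of 5 steroidogenic genes did not overlap (159.3 to 278.8 against 300.9 to 401.5 CPM). Most of it was Hsd3b1, a steroid dehydrogenase, the 1 of the 5 that passed as higher (178 and 305.5 CPM). Star, Cyp11a1 and Ptgfr had lower means in null ovaries, and the median log2 fold change of the 5 was -0.08. The part of these markers in the result was not tested.

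At PND8 the differences were uneven, and smaller than at E18.5 for every subunit but Smc4. Ncapg measured 38.8, 40.6, 39.5 and 39.2 CPM in wild type and 55.8, 51.5 and 55.2 CPM in null ovaries, a log2 fold change of 0.44 (SE 0.06, 1.36-fold). Its 4 wild-type libraries lay within 2 CPM of each other and below every null library. Smc4 measured 146.9, 169.0, 172.9 and 159.7 CPM against 220.4, 190.4 and 221.3 CPM, and Smc2 measured 107.6, 113.9, 123.4 and 107.1 CPM against 156.9, 126.1 and 143.2 CPM. Both were separate, with log2 fold changes of 0.37 (SE 0.08) and 0.32 (SE 0.08), and Smc4, which overlapped at E18.5 (0.27), had the largest difference after Ncapg here. Ncapg2 (57.1 to 72.7 against 76.6 to 90.7 CPM) and Ncapd3 (57.9 to 66.8 against 69.1 to 79.0 CPM) did not overlap either, with log2 fold changes of 0.35 (SE 0.09) and 0.26 (SE 0.07).

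Ncaph (67.3 to 93.0 against 85.8 to 94.1 CPM), Ncapd2 (260.2 to 337.5 against 306.8 to 373.9 CPM) and Ncaph2 (157.9 to 195.0 against 180.2 to 182.4 CPM) overlapped at PND8. Their log2 fold changes were 0.17 (SE 0.09), 0.21 (SE 0.10) and -0.01 (SE 0.07). None of the 7 subunits other than Ncapg passed the threshold at this age with edgeR, beside 0.349% of 17785 genes in either direction, and 4 passed as higher with DESeq2 (Ncapg2, Ncapd3, Smc2 and Smc4), beside 2.02% of genes that were higher with DESeq2. The 4 subunits with separate groups stand beside 8.19% of all genes with higher, separate groups. The set was chosen on this contrast too, so these counts describe it and support nothing. Ncapg shares 944 exon bases with Lcorl on the opposite strand, and whether reads were counted by strand is not given in the sources used here. Lcorl was also higher in null ovaries at PND8 (21.0 to 26.0 CPM in wild type and 26.3 to 30.5 CPM in null), while at E18.5 it overlapped (50.3 to 68.5 and 47.2 to 60.9 CPM), and its part in the Ncapg counts was not tested. Among cell type markers at PND8, the steroidogenic sum was again separate (1050 to 1353 CPM in wild type and 1423 to 2232 CPM in null), with 0 of the 5 genes passing. All 5 stroma and theca genes had lower fitted values in null ovaries (median log2 fold change -0.72) and sums that overlapped (3064 to 4459 and 2337 to 4413 CPM). The 1 that passed was Pdgfra, a receptor of stromal cells (598.5 and 332.4 CPM), beside 0.304% of all genes that were lower. Null replicate 1 was the highest of its group for 6 of the 8 subunits. It also stood apart in 9 blood and immune genes (1871 CPM against 261.8 and 168.5 CPM in the other null libraries). Of the 7 such genes tested, 5 had a log2 fold change above 0 (median 2.73), and 0 passed. The part of these markers in the result was not tested either.

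Before and after these ages the choice of the set used no contrast, and the genotypes were tested. At E13.5 none of the 7 subunits passed the threshold, with adjusted p-values from 0.9885 to 0.9901 (edgeR quasi-likelihood, Benjamini-Hochberg over all genes), where 0.00606% of 16508 genes did, and 576 genes had an unadjusted p under 0.05. Their log2 fold changes ran from -0.15 (Smc4, SE 0.14) to 0.11 (Ncapg2, SE 0.13), and that of Ncapg was 0.04 (SE 0.11). Ncapd2 was the only subunit with separate groups at E13.5, at 141.8, 130.3, 137.1 and 132.0 CPM in wild type and 127.2, 129.7 and 127.1 CPM in null ovaries (log2 fold change -0.12, SE 0.10, adjusted p 0.9885), where 2.02% of genes had lower, separate groups. Leaving out both libraries that stood apart at E13.5 also gave 0 passing subunits.

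At 12wk again none of the 7 passed, with adjusted p-values from 0.4682 to 0.9691 (edgeR quasi-likelihood, Benjamini-Hochberg) beside 0.0115% of 17396 genes, and 1675 genes had an unadjusted p under 0.05. Cdkn1b itself did not pass at 12wk, despite separate ranges (log2 fold change -1.85, SE 0.31, edgeR adjusted p 0.211). The lack of calls at 12wk thus says little about smaller differences. The core subunits had the largest differences: Smc4 measured 97.2, 126.4, 136.9 and 107.2 CPM in wild type and 167.3, 177.9 and 124.1 CPM in null ovaries (log2 fold change 0.41, SE 0.15), and Smc2 57.6, 57.6, 83.6 and 63.8 CPM against 90.8, 98.5 and 70.8 CPM (0.39, SE 0.15). In both genes the lowest null library lay within the wild-type range. Unadjusted p-values were 0.024 for Smc4 and 0.035 for Smc2 (edgeR), and neither held after adjustment (0.4682 and 0.4855). Ncapg measured 15.2, 18.0, 27.6 and 19.4 CPM in wild type and 24.2, 27.2 and 21.5 CPM in null, which overlapped (log2 fold change 0.27, SE 0.20). At this age 1 wild-type library, replicate 3, was the highest of its group for all 8 subunits, and 1 null library, replicate 4, was the lowest of its group for all 8. The same libraries had the highest granulosa marker sum of the wild-type group (5528 CPM) and the lowest of the null group (2393 CPM). Null replicate 4 also stood apart in 4 endothelial genes (1022 CPM against 400.9 and 365 CPM in the other null libraries), in 9 blood and immune genes (924.9 against 283 and 282.7 CPM) and in the steroidogenic genes (8394 against 5297 and 5266 CPM). The part of these cell types in the levels was not tested.

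**Figure D2:**
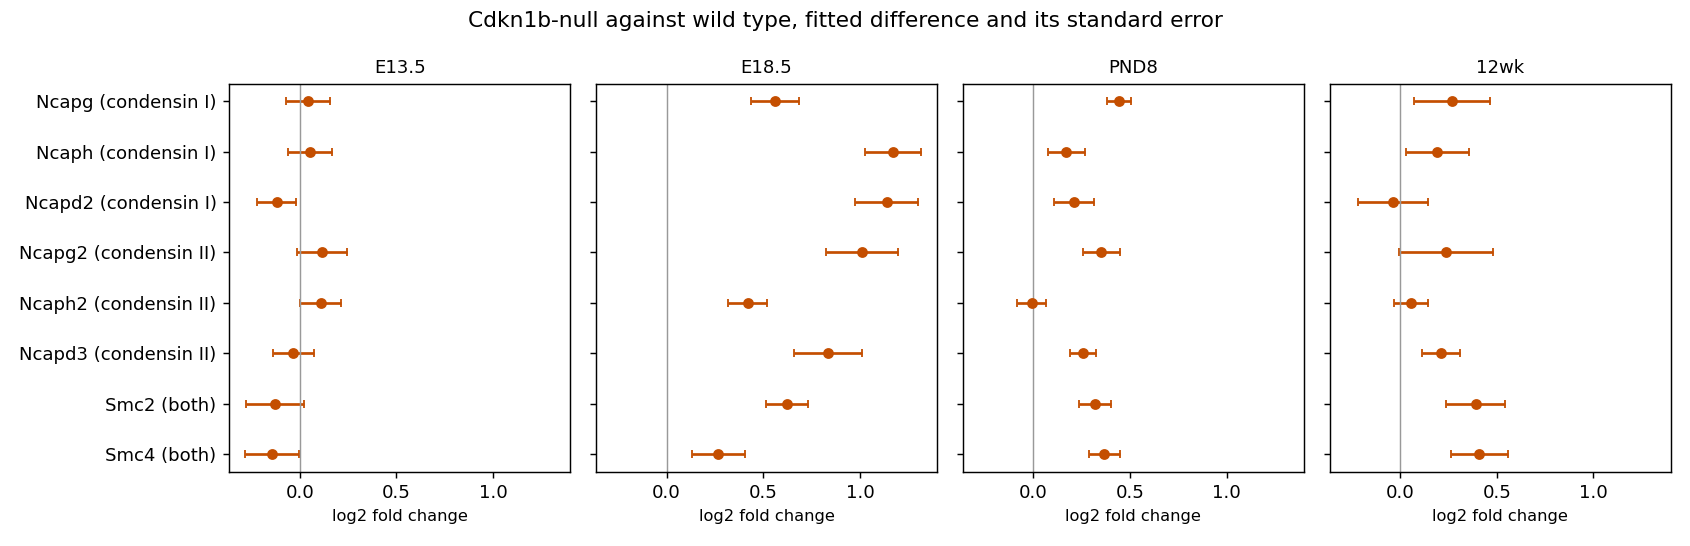
Fitted log2 fold change of each subunit, Cdkn1b-null against wild type, at 4 ages on a shared axis; points are estimates and bars 1 standard error. At E18.5 the estimates run from 0.27 (Smc4) to 1.17 (Ncaph), and at E13.5 they lie between -0.15 and 0.11.

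In wild-type ovaries the subunits moved with age. From E13.5 to E18.5, 6 of the 7 subunits other than Ncapg fell, beside 17.5% of 16603 genes that fell. Ncapd2 fell most, from 135.3 ± 5.19 to 47.8 ± 11.2 CPM (SD, n = 4 each; log2 fold change -1.52, SE 0.16, adjusted p 0.0001058 with edgeR). Ncaph fell by 1.15, Ncapd3 by 0.86, Ncapg2 by 0.83, Smc2 by 0.72 and Ncaph2 by 0.56 on the log2 scale. Smc4 did not pass, at 144.8, 133.6, 172.5 and 141.2 CPM at E13.5 and 163.9, 182.8, 131.4 and 179.9 CPM at E18.5 (log2 fold change 0.14, SE 0.15, edgeR adjusted p 0.4969). Ncapg was lower in every E18.5 library than in any E13.5 library, with a log2 fold change of -0.90 (SE 0.12).

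From E18.5 to PND8, 5 of the 7 rose in wild type, beside 37.6% of 17421 genes that rose. Ncapd2 rose by far the most, from 62.0, 34.8, 49.2 and 45.3 CPM to 260.2, 277.5, 337.5 and 264.3 CPM (log2 fold change 2.49, SE 0.16, 5.61-fold, adjusted p 4.121e-07 with edgeR). Ncaph, Ncapg2, Ncapd3 and Ncaph2 rose by 0.88, 0.81, 0.75 and 0.48 on the log2 scale. Smc2 (0.10, SE 0.09, edgeR adjusted p 0.3394) and Smc4 (-0.12, SE 0.12, adjusted p 0.4143) did not pass, and the log2 fold change of Ncapg was 0.08 (SE 0.10). Scaled by library totals alone, Smc2 was at -0.11 and Smc4 passed as lower (-0.33). Where Ncapd2 returned above its E13.5 level, Ncapg stayed at 39.5 CPM, below each of its E13.5 libraries. Embryonic and postnatal libraries also differed in depth, and the table's header names a folder of 2 combined projects without assigning samples to them. Age and project thus cannot be told apart at this step. Whether project also differed within the other steps or between the genotypes is not known. The E18.5 and PND8 libraries of both genotypes entered the choice of the set, and each step in wild type or null ovaries uses at least 1 of these groups. None of the steps is thus independent of that choice or of the step before or after it.

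From PND8 to 12wk all 7 fell in wild type, beside 14.3% of 17293 genes that fell. The decreases on the log2 scale ran from 0.89 for Ncaph (log2 fold change -0.89, SE 0.14, edgeR adjusted p 0.002237) to 0.32 for Ncaph2 (-0.32, SE 0.09, adjusted p 0.02372). Ncapg had a log2 fold change of -0.89 (SE 0.17). Ncapg2, Ncaph2 and Smc4 were near the threshold: without wild-type 12wk replicate 1 or without PND8 replicate 3, 4 of the 7 passed.

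Markers of cell types also moved strongly between the ages in wild type. The granulosa sum went from 165.8 to 228.2 CPM at E13.5 to between 495.3 and 656 CPM at E18.5 and between 3129 and 3949 CPM at PND8, where 6 of its 8 genes rose from E18.5 and 2 fell. At that same step 6 of the 7 blood and immune genes tested fell, from sums of 1607 to 32670 CPM to sums of 27.3 to 201.5 CPM (1 of the 9 genes at 0 at PND8), and 3 of 10 germ cell genes rose while 6 fell (503.7 to 1164 and 97.6 to 332.2 CPM). These counts from E18.5 to PND8 stand beside 37.6% of all genes that rose and 36.9% that fell. From PND8 to 12wk all 5 steroidogenic genes rose, to sums of 3270 to 12740 CPM, beside 16.1% of all genes. At that step 6 of the 10 germ cell genes fell, beside 14.3% of all genes. In null ovaries 6 granulosa genes rose and 1 fell from E18.5 to PND8, and 4 blood and immune genes fell. Of all genes, 38.9% rose and 38.5% fell at that step in null ovaries. The part of these cell types in the changes of the subunits was not tested.

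In null ovaries the step from E13.5 to E18.5 left most subunits without a call. Only Smc4 passed among the 7, from 130.8, 130.1 and 152.7 CPM to 165.9, 221.1, 234.5 and 188.0 CPM (log2 fold change 0.56, SE 0.13, edgeR adjusted p 0.01243), beside 15.8% of 16598 genes that rose. The others ran from -0.25 (Ncapd2, SE 0.11) to 0.08 (Ncapg2, SE 0.12), with edgeR adjusted p-values from 0.07782 (Ncaph2) to 0.9406 (Ncapd3). Without null E13.5 replicate 1, Ncaph2 also passed, as lower (-0.32). From E18.5 to PND8 Ncapd2 was the only one of the 7 to pass, rising from 107.3 ± 14.1 CPM (SD, n = 4) to 332.3 ± 36.4 CPM (n = 3; log2 fold change 1.58, SE 0.11, edgeR adjusted p 6.149e-07), beside 38.9% of 17245 genes that rose. Without null E18.5 replicate 3, Ncapg2 and Ncapd3 passed as well (3 in all), and without replicate 1 Smc2 passed as lower (2 in all). From PND8 to 12wk 6 of the 7 fell, beside 14% of 17437 genes, from -0.92 (Ncapg2, SE 0.12) to -0.25 (Ncaph2, SE 0.07), and Smc4 did not pass (-0.34, SE 0.13, edgeR adjusted p 0.09274). The call of Ncaph2 at this step was lost in each of the 6 fits that left out 1 library (edgeR adjusted p 0.05737 to 0.1062), so that 5 of the 7 fell in those fits. Whether any step differed between the genotypes was not tested.

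**Figure D3:**
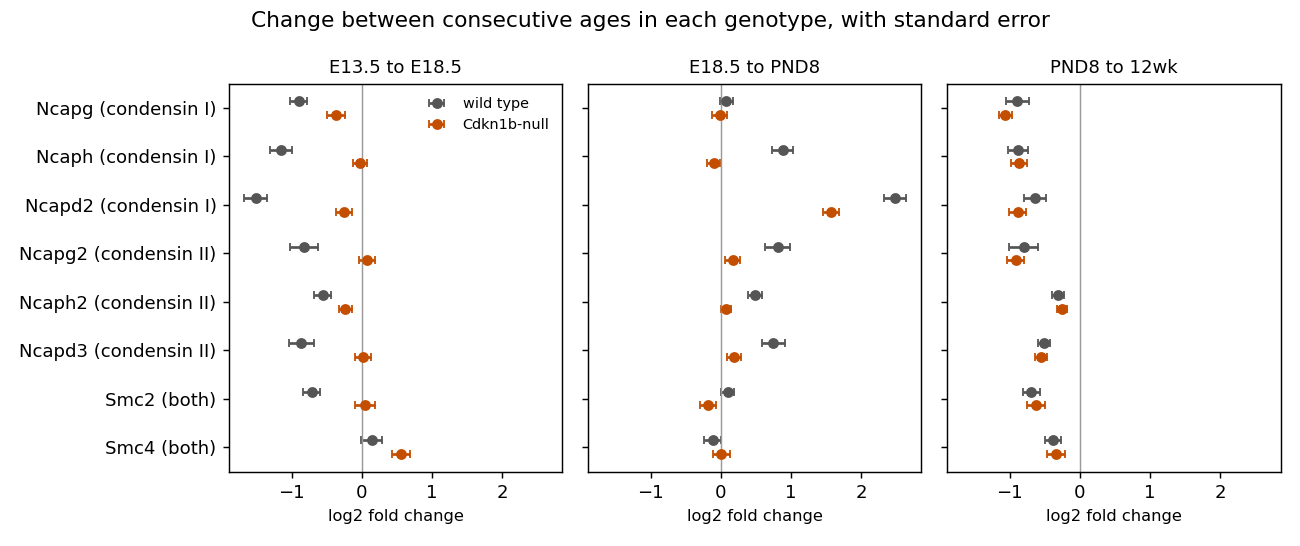
Log2 fold change of each subunit between consecutive ages, in wild type (grey) and Cdkn1b-null ovaries (orange), on a shared axis; bars are 1 standard error. Ncapd2 has the largest change from E18.5 to PND8 in both genotypes (2.49 in wild type and 1.58 in null), and Smc4 is the highest at the step from E13.5 to E18.5 in both (0.14 and 0.56).

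Condensin I and II were compared within each library as the mean log2 CPM of the 3 condensin I subunits minus that of the 3 condensin II subunits, with no test since this score is made of the members. In wild type, from the youngest to the oldest age, it was 0.09 ± 0.07, -0.34 ± 0.11, 0.11 ± 0.06 and -0.15 ± 0.15 (SD, n = 4 each). In null ovaries it was 0.02 ± 0.07 (n = 3), -0.15 ± 0.06 (n = 4), 0.19 ± 0.06 (n = 3) and -0.18 ± 0.07 (n = 3). Condensin I thus stood lowest against condensin II at E18.5 in wild type, where the libraries lay at -0.34, -0.25, -0.50 and -0.29, all below the null libraries at -0.12, -0.22, -0.09 and -0.18. Genotype ranges overlapped at the other 3 ages. Summed per kilobase of transcript, the ratio of condensin I to condensin II RNA was 1.03, 0.69, 1.28 and 1.02 in wild type at the 4 ages and 0.96, 0.94, 1.40 and 0.99 in null ovaries.

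**Figure D4:**
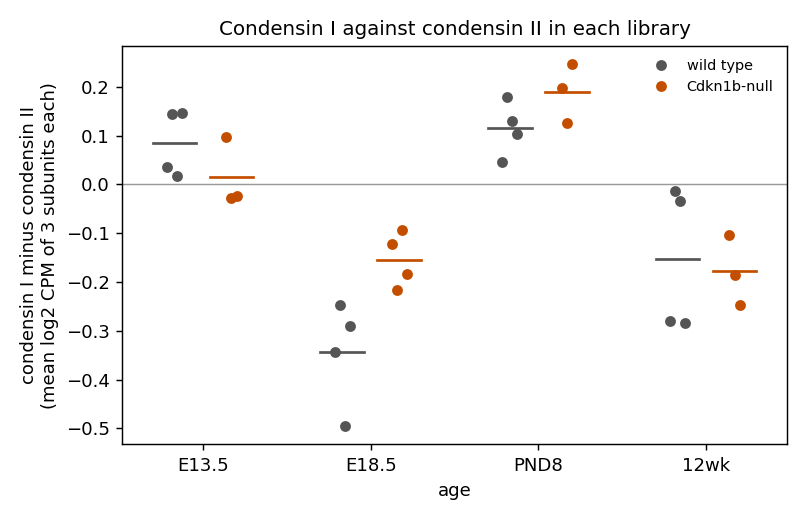
Mean log2 CPM of Ncapg, Ncaph and Ncapd2 minus that of Ncapg2, Ncaph2 and Ncapd3 in each library, by age, with wild type in grey and Cdkn1b-null in orange; lines are group means. At E18.5 the wild-type libraries lie from -0.50 to -0.25 and the null libraries from -0.22 to -0.09.

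The 3 paralogous pairs behind this score moved in different directions with age. The D pair, Ncapd2 minus Ncapd3 in log2 CPM, was 1.14 ± 0.09, 0.50 ± 0.16, 2.22 ± 0.08 and 2.07 ± 0.21 in wild type at the 4 ages in turn (SD, n = 4 each). The G pair, Ncapg minus Ncapg2, was 0.09 ± 0.25 and 0.05 ± 0.33 in wild-type embryos and -0.70 ± 0.17 and -0.78 ± 0.24 at PND8 and 12wk. Every postnatal library of both genotypes lay above every embryonic library for the D pair. For the G pair every postnatal library lay at -0.42 or lower, a range that the null E18.5 libraries reached (-0.53 to -0.31). The kleisin pair, Ncaph minus Ncaph2, was lowest at 12wk (-1.76 ± 0.18) and E18.5 (-1.58 ± 0.19) in wild type. At E18.5 the genotypes were separate for 2 pairs in the same direction, at 0.26 to 0.61 in wild type and 0.75 to 0.88 in null ovaries for the D pair and at -1.79 to -1.35 and -0.93 to -0.64 for the kleisin pair. The G pair ran the other way, at -0.26 to 0.51 in wild type and lower in all 4 null libraries. In wild type the score of the complexes was thus similar at E13.5 and PND8, while the D pair was higher and the G pair lower at PND8.

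Part of the exons of Ncapd2 and Ncaph2 is shared with other genes. Ncapd2 shares 237 exon bases with the small RNA gene Scarna10 through transcripts with a retained intron, and Scarna10 itself was listed at 0.144 CPM or less in every library. Ncaph2 shares exon bases with Sco2 and Tymp on the opposite strand, which stood at means of at most 5.60 and 2.25 CPM in any group.

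Genes that work with condensin on mitotic chromosomes were higher in null ovaries at E18.5 too. Of 20 partner and scaffold genes, 16 passed as higher at that age, beside 3.32% of all genes (median log2 fold change 0.97, against -0.04 over all genes), and 0 passed with edgeR at E13.5, PND8 and 12wk. As the set was chosen on the E18.5 and PND8 contrasts, genotype differences of these lists at those ages are given without p-values. Top2a, the topoisomerase that untangles sister chromatids, measured 133.4 ± 30.8 CPM in wild type and 357 ± 41.4 CPM in null ovaries (SD, n = 4 each; log2 fold change 1.39, SE 0.15). Kif4, a chromokinesin that acts with condensin I on chromosome arms, measured 27.3 ± 5.79 and 63.1 ± 8.46 CPM (1.18, SE 0.16). Mki67, which coats mitotic chromosomes, did not pass (76.7 and 125.1 CPM, 0.68, SE 0.23), and neither did Mcph1, the microcephalin that restrains condensin II (26.8 and 33.0 CPM, 0.27, SE 0.13). Plk1, a mitotic kinase, measured 33.5 and 102.2 CPM (log2 fold change 1.58, SE 0.17).

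With age, 17 of these 20 fell from E13.5 to E18.5 in wild type (median -1.30, beside 17.5% of all genes), 11 rose from E18.5 to PND8 (median 0.67, beside 37.6%) and 16 fell from PND8 to 12wk (median -0.82, beside 14.3%). Ccnb1, the B-type cyclin of mitosis, fell at the embryonic step, from 388.2 to 75.5 CPM (log2 fold change -2.38, SE 0.18, adjusted p 1.906e-05 with edgeR). In null ovaries 6 fell and 1 rose at the embryonic step, where 14.5% of all genes fell and 15.8% rose. From E18.5 to PND8 7 rose and 7 fell, a share near that of all genes (38.9% rose and 38.5% fell), and 17 fell from PND8 to 12wk, beside 14%. Mki67 was the one that rose in null embryos (77.2 to 125.1 CPM, log2 fold change 0.70, SE 0.21, edgeR adjusted p 0.03588). Mki67 and Incenp, a subunit of the chromosomal passenger complex, had large increases from E18.5 to PND8 in wild type, from 76.7 to 640.6 CPM (2.98, SE 0.21, edgeR adjusted p 7.089e-07) and from 29.8 to 142.1 CPM (2.17, SE 0.10, adjusted p 9.922e-08).

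All 15 DNA replication genes were higher in null ovaries at E18.5, beside 3.32% of all genes (median log2 fold change 1.11), and 0 passed at the other ages with edgeR. Mcm3, a subunit of the replicative helicase, measured 90.3 CPM in wild type and 221 CPM in null ovaries (1.26, SE 0.12). In wild type all 15 fell from E13.5 to E18.5 (median -1.53, beside 17.5% of all genes), 12 rose from E18.5 to PND8 (median 0.82, beside 37.6%) and 15 fell from PND8 to 12wk (median -0.85, beside 14.3%). In null ovaries 8 fell at the first step (beside 14.5%), 4 rose and 6 fell at the second (beside 38.9% and 38.5%), and 15 fell at the third (beside 14%). In wild type, and between the genotypes at E18.5, most of these replication and mitotic genes thus moved the same way as most condensin subunits. In null ovaries 8 replication genes fell and 0 rose from E13.5 to E18.5, while of the 7 subunits only Smc4 passed, as higher. Median log2 fold changes at that step were -0.28 for replication and -0.23 for partner genes. They were -0.25 for condensin I with Ncapg, 0.01 for condensin II and 0.30 for Smc2 and Smc4. From E18.5 to PND8 in null ovaries, 4 replication and 7 partner genes rose, and 6 and 7 fell, while only Ncapd2 of the 7 passed, as higher. The medians there were -0.06 and 0.02 for these lists, and -0.02, 0.17 and -0.09 for condensin I, condensin II and the SMC pair. The share of dividing cells in these ovaries was not measured.

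The other SMC genes were cohesin genes, genes of the SMC5/6 complex, regulators of these, and Smchd1, a non-canonical SMC gene. At E18.5, 3 of 20 were higher and 1 was lower in null ovaries (median 0.20), beside 3.32% and 1.67% of all genes. The higher ones included Esco2, the cohesin acetyltransferase of S phase (43.0 and 64.0 CPM, log2 fold change 0.55, SE 0.12), and Smc1a, a cohesin ATPase (103.6 and 146 CPM, 0.46, SE 0.10). The lower one was Rec8, the kleisin of meiotic cohesin (70.8 and 28.1 CPM, -1.36, SE 0.15), which also passed as lower at PND8 (11.6 and 3.58 CPM, -1.70, SE 0.27). From E13.5 to E18.5 in wild type 4 rose and 7 fell (beside 16.6% and 17.5% of all genes), and from E18.5 to PND8 9 rose and 9 fell, where 37.6% of all genes rose and 36.9% fell.

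The likeness of profiles was measured as the root mean square difference, over the 8 groups, of group mean log2 CPM centred on its mean, among 11590 genes with a mean of at least 5 CPM. The profile averaged over the 3 condensin I subunits was nearest to Cdca7 (0.083), Chaf1a (0.101), Tpx2 (0.104) and Anln (0.109). Cdca7 followed it at 110.1, 46.0, 117.6 and 57.8 CPM in wild type at the 4 ages and 125.4, 90.3, 129.9 and 70.8 CPM in null ovaries. The profile of condensin II was nearest to Pcna (0.059), Parpbp (0.075), Sass6 (0.089) and Mastl (0.092). Among the members themselves the closest pair crossed the complexes, Ncaph with Ncapg2 (0.142), and the farthest were Ncapg and Ncapd2 of the same complex (1.02). The mean profile of condensin I was thus not that of its subunits. Ncapg lay 0.423, Ncapd2 0.599 and Ncaph 0.200 from it. From the mean of condensin II, Ncapd3 lay 0.051, Ncapg2 0.143 and Ncaph2 0.147. Each subunit is part of the mean it was measured against, which makes these distances smaller.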

How the data were processed

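RNA sequencing of 29 ovary samples in 8 groups was used, with groups and replicate numbers from the sample titles. Per the submitters' processing notes, Trim Galore, FastQC 0.11.5, STAR 2.5.2 and RSEM 1.3.0 were used, and the deposited table holds RSEM expected counts per Ensembl gene, which are estimated and need not be whole (31.4% of values above 0 were not). The genome build, strandedness and library kit are not given in the sources used here. Expected counts were rounded, and 15387 of 51912 IDs had no count. Symbols matched 51633 IDs. Positions are GENCODE M21 on GRCm38, and promoters are RefSeq's on GRCm38.p6.

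Each comparison was fitted on its own 2 groups over the whole table with edgeR 4.0.16 (R 4.3.3): TMM, filterByExpr (minimum count 10, total 15), a robust quasi-likelihood F test and p-values adjusted by Benjamini-Hochberg. A gene passed when the adjusted p was under 0.05. The standard error is the log2 fold change over the square root of F. Printed CPM values use TMM over all 29 samples, and log2 CPM a prior count of 2, so fitted folds differ slightly from ratios of CPM. All 39 replicate pairs differed beyond sampling noise (chi-square per degree of freedom 14.1 to 316.6). The models were tested on simulated data.

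The members and lists were chosen with earlier results of these data known. Named genes are the 8 members, Cdkn1b, Mki67, Top2a, Kif4, Mcph1, up to 3 genes of each list with the smallest p in a comparison, and the 4 nearest profiles for each complex; Lcorl, Scarna10, Sco2 and Tymp were named for their overlap, single cell type markers were named after their values were seen, and the paralogous pairs were described after their values were seen. Alternatives were RLE size factors, library totals alone, no filter, DESeq2 1.42.0, all groups in 1 fit, the replicate number as a block and each replicate left out. Leaving out 2 E13.5 libraries was added after the data were seen. The replicate numbers were taken to pair the samples where the correlation of every same-numbered pair was over 0.1. From E13.5 to E18.5 in null ovaries this was met (0.128 to 0.23), on the data alone, and the block changed no call there. At E18.5 the 4 correlations between genotypes were 0.0907 to 0.24, 1 of them under the limit.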

Additional observations from a re-analysis of the deposited data

Results flagged for a closer look

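In groups of 4 libraries, 45 sets of values were examined: the 8 subunits and the score of condensin I against II, in 5 groups each. A library was flagged when its gap to its nearest neighbour exceeded 0.829 of the group's range. Chance passes this limit in about 1 of 20 sets. Null E18.5 replicate 3 stood above its group for Ncapg (65.01 CPM) and Ncaph (109.1 CPM). Wild-type 12wk replicate 3 stood above its group for Ncapd2 (233.2 CPM).

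The genotype difference of Ncapd2 had opposite signs at neighbouring embryonic ages, with groups that did not overlap at either. The log2 fold change was -0.1187 at E13.5 (SE 0.10, edgeR adjusted p 0.9885) and 1.138 at E18.5 (SE 0.16). The E13.5 difference did not pass, and 2.02% of all genes had lower, separate groups at that age. The difference between these ages was not tested.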

How the results depend on the processing

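The 4 genotype comparisons and the 6 steps between ages kept their count of passing subunits within 1.5 times under most settings, and no step or genotype difference that passed changed its direction. DESeq2 gave 4 passing subunits at PND8 in place of 0 and 2 from E13.5 to E18.5 in null ovaries in place of 1, and library totals alone gave 3 from E18.5 to PND8 in null ovaries in place of 1. Leaving out 1 replicate moved the count between 3 and 6 at E18.5, 4 and 7 from PND8 to 12wk in wild type, 1 and 2 from E13.5 to E18.5 in null ovaries, and 1 and 3 from E18.5 to PND8 in null ovaries. Library totals alone shifted the median of all genes to 0.14 from E13.5 to E18.5 in wild type, and to -0.21 and -0.22 from E18.5 to PND8 in wild type and null ovaries.

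Differences near 0 reversed, none of which had passed. Ncapg, with no test, also changed sign near 0: its genotype difference at E13.5 ran from -0.0168 to 0.1043 with 1 replicate left out, its change from E18.5 to PND8 in wild type was 0.08 and -0.1354 with library totals, and in null ovaries that change was -0.02, above 0 without a filter and with all groups in 1 fit, and -0.0718 to 0.0738 with 1 left out. For the genotype at E13.5, Ncapd3 was 0.0253 with library totals and 0.0031 with all groups in 1 fit (-0.0588 to 0.0157 with 1 replicate left out), and Smc2 ran from -0.2398 to 0.0013 with 1 replicate left out. Without both E13.5 libraries that stood apart, Smc2 was 0.1068 and Smc4 0.0364. At PND8 Ncaph2 was 0.0033 with all groups in 1 fit and 0.0163 with the replicate block (-0.0542 to 0.0194 with 1 left out). At 12wk Ncapd2 ran from -0.1293 to 0.1321, the highest without wild-type replicate 3. From E18.5 to PND8 with library totals, Smc2 was -0.1129 in wild type, and in null ovaries Ncapg2 was -0.0369, Ncaph2 -0.135, Ncapd3 -0.0172 and Smc4 -0.1988 (Smc4 -0.1012 to 0.0916 with 1 left out). From E13.5 to E18.5 in null ovaries, Ncapd3 was -0.0175 with RLE, -0.0178 with DESeq2 and -0.01 with all groups in 1 fit (-0.0841 to 0.077 with 1 left out), and Ncaph was 0.0128 with library totals (-0.1073 to 0.0076). At the same step Ncapg2 ran from -0.0283 to 0.1425 and Smc2 from -0.0924 to 0.158, and Smc2 was -0.0924 without the library that stood apart. The cause of these shifts was not tested.

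Only the comparison from E13.5 to E18.5 in null ovaries had every pair over the limit of 0.1, although all pairs were also above 0 between the genotypes at E18.5 (0.0907 to 0.24) and 12wk (0.0368 to 0.193) and from E18.5 to PND8 in null ovaries (0.0022 to 0.0257). With the replicate block 5 of the 7 subunits passed at E18.5 in place of 6 (without Ncaph2, at 0.43) and 5 in place of 6 fell from PND8 to 12wk in null ovaries (without Ncaph2, whose call was also lost without a filter and with any 1 replicate left out), and the counts of the other comparisons stayed as they were. Over all genes, the count at PND8 was 62 and became 824 with DESeq2, 258 without a filter, 21 with library totals, 7 with the block and 0 with all groups in 1 fit. At E18.5 it was 814 and became 1685 with DESeq2, and ran from 246 (without null replicate 3) to 1372 with 1 replicate left out. At E13.5 the count of 1 became 65 with DESeq2, 59 with all groups in 1 fit and 0 without both libraries that stood apart. At 12wk the count of 2 became 326 with DESeq2, 68 with all groups in 1 fit, 12 without a filter, 1 with library totals and 0 with the block. The score of condensin I against II moved by less than its spread under every setting run. That outcome was fixed beforehand and shows nothing about how robust the score is. Scaling nearly cancels within a library, and a prior count hardly acts at these counts. Leaving out 1 library cannot move a group mean by the SD of that group. Counting depth limited no subunit.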
